A study of Homo sapiens with 197 samples.

Results

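The rows described here are the 5 abundant endogenous rows of a Nanostring panel that remained once 10 others had been set aside: ITPR2, PLA2R1, PPM1D, Tet2 and Tet3. They were chosen from the 57 endogenous rows of the panel by their median raw count, which had to be above 100 over all lanes of kinase-infected and control IMR90 cells without the failed HK1 lane. The rows set aside by name were ALAS1, ATAD2, Tet1, UHRF1, MyrFlag, NeoR, PuroR, ZBTB33, ZBTB38 and ZBTB4. Of the 13 rows above this threshold, 8 were among the rows set aside. The median raw counts that chose the rows were 1890 for the Tet3 row, 682 for Tet2, 661 for ITPR2 and 514.5 for PLA2R1. The PPM1D row, just inside, was at 1.48 times the threshold, and the KCNA1 row, at 52, was the first one outside it.

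The study asked whether activated kinases turn on silent genes in non-transformed human lung fibroblasts. IMR90 cells, a line of fetal lung fibroblasts, were infected well by well with retroviruses, each encoding 1 kinase that carried a myristoylation signal and a Flag tag, and RNA was collected 4 days later. Besides kinase-infected cells, the lanes held 2 IMR90 controls, labelled as empty vector, 2 lanes of SW39, a transformed derivative of IMR90, and 6 lanes of one commercial RNA mixed from several human cancer cell lines. Apart from 3 second lanes and HK1, each remaining lane was a different kinase, and these are called the kinase wells. The labels give the SW39 lanes the same infection and empty-vector entries as the controls, and the study describes its control wells as infected with the empty vector, but where it speaks of the tag it calls IMR90 and SW39 cells non-infected. The study does not say how SW39 was transformed, and the promoter of the vectors is not given in the sources used here. None of 10 fibroblast markers was on the panel, so the cell type could not be checked against its markers.

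ITPR2 encodes a receptor for inositol trisphosphate that lets calcium out of the endoplasmic reticulum, and PLA2R1 encodes the M-type receptor for secreted phospholipases. Both genes are known for a part in the senescence of human fibroblasts. PPM1D encodes the Wip1 phosphatase, which is induced by p53 and removes phosphates from p53 and other proteins of the DNA damage response. TET2 and TET3 are dioxygenases that oxidize methylcytosine, the first step of active DNA demethylation. In Nanostring, probes with a colored barcode are hybridized to RNA and counted without amplification, so a value counts barcodes for 1 probe in 1 lane. Probes differ in how well they capture their RNA, so levels were not compared between rows.

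The names are those of the files, and which RNA each of these rows counted was not settled by the files. The 5 rows belong to a group of 15 control rows that also holds the vector rows. The row named MyrFlag, for the tag of the kinases, held 2946 and 3646 raw counts in SW39 and 1694 to 3854 in the reference RNA, which holds no vector. The row named ZBTB33 held 9 and 18 raw counts in the controls, 8 in each SW39 lane and 14 to 84 in the reference RNA, against a median of 19951 in the kinase wells. The other vector rows are NeoR, which held 565 to 1260 raw counts in the reference RNA, and PuroR, which was at background there. The row named ZBTB38 held 8 to 21 raw counts in the reference RNA, against 1636 and 6919 in the controls. When each of the 15 rows took the name 3 places further down the list, going on from its top at the end, MyrFlag fell on the ZBTB33 row and NeoR on the ZBTB38 row. The names PPM1D, Tet2, Tet3, ZBTB33 and ZBTB38 then fell on the rows called ITPR2, PLA2R1, PPM1D, Tet2 and Tet3. Whether the names are displaced was not tested, so each row is called here by its name in the files, and what is said of a gene applies to the row only if its name holds.

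Raw counts of the 5 rows lay above the background of their lane, the mean plus 2 SD of the negative controls, in all 915 values of the kinase wells, the lowest being 36. Total counts per lane ran from 29629 to 340763 in the kinase wells, from 142255 to 152599 in the controls, from 123789 to 142790 in SW39 and from 108768 to 233536 in the reference RNA. Counts were scaled with the positive controls and then with 3 housekeeping genes (the geometric mean of TBP, PGK1 and TUBB2A in a lane), and the result is called the normalized count. A second lane titled as the control replicate 2, and second lanes of PIK3CG and PTK2, carry the sample numbers of other samples. Over these lanes, 12 of 15 values of the 5 rows lay closer to the lane that shared the sample number than to the one that shared the name, and the second lanes were left out of the values below.

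Across the kinase wells the 5 rows stayed within a few fold of their median. The normalized count of the ITPR2 row ran from 359 to 940, with a median of 661. The PLA2R1 row ran from 328 to 725, with a median of 517. The PPM1D row had the widest range, 4-fold, from 74.9 to 299.7 with a median of 147.6, and a coefficient of variation of 25.5%. The Tet2 row ran from 506 to 907 with a median of 692. The Tet3 row varied least, from 1447 to 2383 with a median of 1893 and a coefficient of variation of 8.32%. The coefficients of the ITPR2, PLA2R1 and Tet2 rows were 15.7%, 14.5% and 12.05%.

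**Figure D1:**
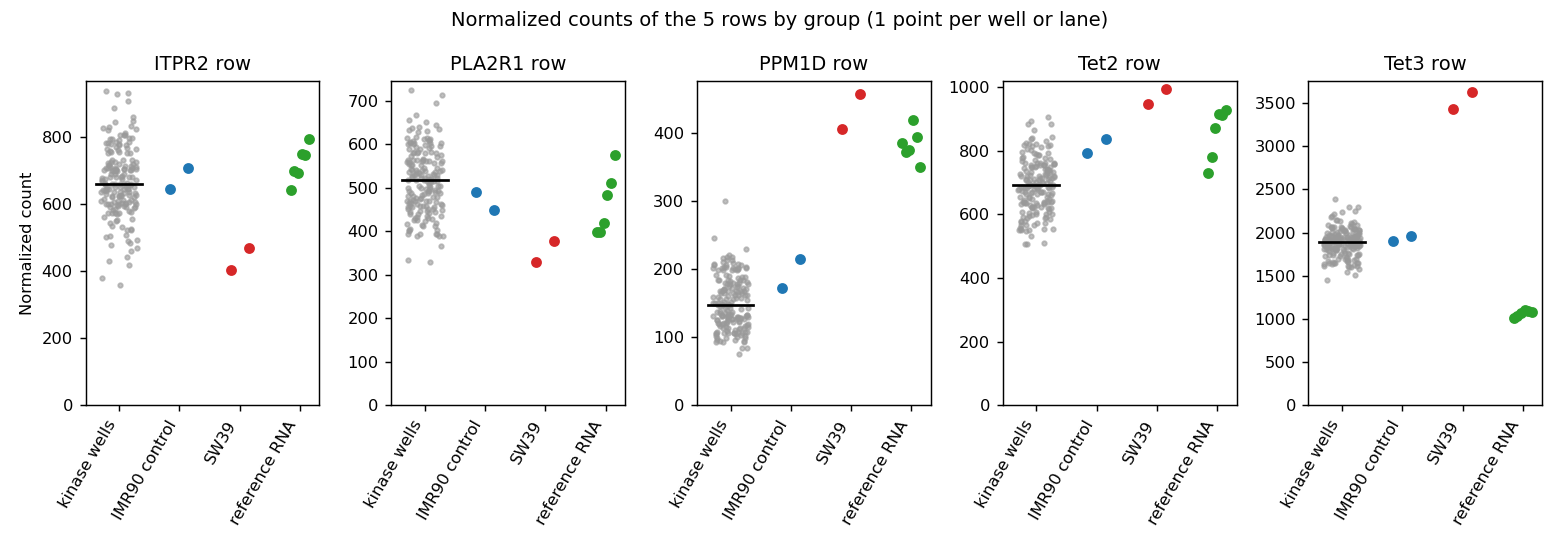
Normalized counts (vertical axes, linear from 0, 1 panel per row) of the kinase wells (grey, black line at the median), the 2 IMR90 controls (blue), the 2 SW39 lanes (red) and the 6 reference RNA lanes (green). Both SW39 lanes lie above all kinase wells for the PPM1D, Tet2 and Tet3 rows, and the reference RNA lies below all kinase wells for the Tet3 row.

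The first comparison was between transformed SW39 cells and the IMR90 controls. The rows PPM1D and Tet3 rose and the row ITPR2 fell at an adjusted p of 0.05. This was 3 of the 5 rows, where 8 of the 57 endogenous rows tested, 14%, passed in either direction (10.5% higher and 3.51% lower). The 2 shares are not alike, since the 5 rows were chosen for high counts. Only 15 of the 57 rows had a mean raw count of 20 or more over the lanes of this comparison. The median log2 fold change was 0.25 over the 5 rows and 0.16 over all 57. Tests were made with edgeR's quasi-likelihood test with Benjamini-Hochberg adjustment over the 57 rows. Nothing in the labels says that the 2 lanes of a group came from separate cultures, so p-values may measure technical spread only.

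The normalized count of the PPM1D row was 171.7 and 214 in the controls and 405 and 457 in SW39. Both SW39 lanes were above both controls and above every kinase well, the highest of which held 299.7. The log2 fold change was 1.16 ± 0.16 (SE, edgeR adjusted p = 0.00502, n = 2 and 2). If the name of the row holds, the gene is a target of p53, and it was the single gene of the p53 list on the panel. With the names 3 places further down, PPM1D would fall on the ITPR2 row, at -0.63 in SW39, and Tet3 on this row.

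The Tet3 row held 1906 and 1965 in the controls and 3429 and 3624 in SW39. The groups did not overlap, and all kinase wells lay below SW39. The log2 fold change was 0.87 ± 0.15 (SE, edgeR adjusted p = 0.0113, n = 2 and 2). Leaving out any one of the 4 lanes ended this call as well, with edgeR adjusted p between 0.118 and 0.177, and so did limma (adjusted p = 0.0643).

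The ITPR2 row held 645 and 710 in the controls and 405 and 469 in SW39. Both SW39 lanes were lower than both controls, and 2 kinase wells were lower still. The log2 fold change was -0.63 ± 0.16 (SE, edgeR adjusted p = 0.0484, n = 2 and 2), close to the threshold. Leaving out any one of the 4 lanes ended this call, with edgeR adjusted p between 0.139 and 0.364, as did limma (adjusted p = 0.224) and all 4 housekeeping genes (edgeR adjusted p = 0.0575).

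The PLA2R1 row held 491 and 448 in the controls and 330 and 378 in SW39. The groups did not overlap, yet the log2 fold change of -0.41 ± 0.15 (SE, n = 2 and 2) did not pass (edgeR adjusted p = 0.190). The result hung on the setting, as the row passed in 7 of the 17 alternatives, among them the same test with rows of low counts left out (-0.41, edgeR adjusted p = 0.0391), DESeq2 with the same scaling (-0.41, adjusted p = 0.0233) and TMM factors (-0.62, edgeR adjusted p = 0.00137). The Tet2 row held 794 and 836 in the controls and 946 and 995 in SW39. Its log2 fold change of 0.25 ± 0.15 (SE, n = 2 and 2) did not pass either (edgeR adjusted p = 0.483), although both SW39 lanes were above both controls. All kinase wells were below both SW39 lanes for the Tet2 row, while 98.4% were above them for the PLA2R1 row.

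In SW39 the normalizers moved apart. The normalized count of PGK1 was 9815 to 10097 in the controls and 12201 to 12487 in SW39, that of TBP was 431 to 441 against 642 to 689, and that of TUBB2A was 4174 to 4190 against 2158 to 2264. Alternatives that used each of them alone were chosen after seeing the data. With TUBB2A alone the median of all rows moved up by 0.91 on the log2 scale, and with TBP alone it fell by 0.61. The ITPR2 row then had log2 fold changes of 0.29 and -1.24, and the PLA2R1 row of 0.51 and -1.02, so the direction of both rows turned with the normalizer. Scaled on the positive controls only, the values were 0.15 for ITPR2 and 0.38 for PLA2R1. The Tet2 row was 1.17 with TUBB2A and -0.36 with TBP, and both passed (edgeR adjusted p = 0.00294 and 0.0368). The PPM1D row was positive in all 17 alternatives, from 0.55 to 2.08, and the Tet3 row too, from 0.26 to 1.79, which did not pass with PGK1 (edgeR adjusted p = 0.135) or TBP alone (0.0902). The PPM1D call was lost without either control lane (edgeR adjusted p = 0.212 and 0.131) and held without either SW39 lane (0.000107 and 0.00363).

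**Figure D2:**
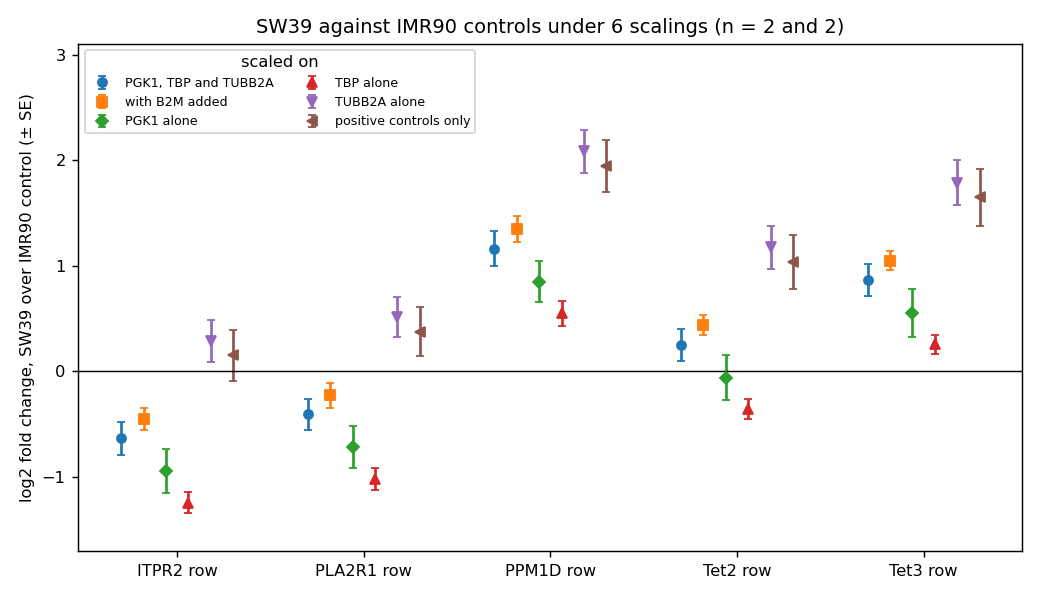
The log2 fold change of SW39 over the IMR90 controls (vertical axis, ± SE, 2 lanes a group) for the 5 rows, with 6 ways of scaling the lanes (symbols). The order of the rows is nearly fixed, but the height moves with the scaling, so that ITPR2 and PLA2R1 lie on either side of 0 (ITPR2 at 0.29 with TUBB2A and -1.24 with TBP), while PPM1D and Tet3 stay above it.

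Differences between rows within a lane need no normalizer. All 10 differences between pairs of the 5 rows separated the 2 SW39 lanes from the 2 controls. The 10 differences come from 5 values in each lane and are not separate observations. Pairs of other rows were not compared, so the share that separates over all rows is not known. The log2 difference of the ITPR2 row minus the PPM1D row was 1.90 and 1.73 in the controls and 0.00 and 0.04 in SW39, and it was at least 0.91 in the kinase wells. The ITPR2 row minus the Tet3 row went from -1.56 and -1.47 in the controls to -3.08 and -2.95 in SW39, below the lowest kinase well at -2.38. The PPM1D row minus the Tet3 row differed least beside ITPR2 minus PLA2R1, by 0.30 between the means of the groups. Such a difference shows that 2 rows changed unequally, and not which of them changed.

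Each run of 12 sample numbers at the start of the series held 1 control and 1 SW39 lane. Within the first and the second run, the log2 difference of SW39 minus control was 1.23 and 1.09 for the PPM1D row, 0.85 and 0.88 for Tet3, and -0.67 and -0.60 for ITPR2. It was -0.57 and -0.25 for PLA2R1 and 0.25 in both runs for Tet2. In each of the 5 rows both SW39 lanes lay on the same side of both controls, so the direction could not differ between the runs. These are the same lanes as above, scaled in the same way, and not a further observation.

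Of the genes that write or remove DNA methylation, 5 of 8 were on the panel (DNMT1, UHRF1, Tet1, Tet2 and Tet3). In SW39, 2 of these 5 rows rose and none fell, against 10.5% higher and 3.51% lower over all 57 rows, most of which had low counts. One of the calls is that of Tet3, which was lost when any one lane was left out. The Tet1 row, the other one, had a log2 fold change of 3.16 ± 0.17 (SE, edgeR adjusted p = 4.02e-05, n = 2 and 2). The row named UHRF1, for the protein that brings the maintenance methyltransferase DNMT1 to replicated DNA, had a log2 fold change of -0.40. The row named DNMT1 was not above background in any control or SW39 lane, and the median over the other 4 rows was 0.56. All 5 rows are among those whose names may be displaced, so these values may not be those of the named genes. With the names 3 places further down, DNMT1 would fall on the MyrFlag row, at 1.96 in SW39, and UHRF1 on the Tet1 row.

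The second comparison set the kinase wells against the IMR90 controls, in order to see how the rows responded to infection with an activated kinase as such. None of the 5 rows passed an adjusted p of 0.05 in an exact permutation test over all 17020 choices of 2 wells among kinase wells and controls (two-sided). At an unadjusted p of 0.05, 1 of the 5 passed. Over all 57 rows 1.75% passed after adjustment and 12.3% before it.

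The row with the smallest p was Tet2. Its normalized counts in the controls, 794 and 836, were both above 88.5% of the kinase wells, and 8 wells were above both. The mean log2 difference of kinase wells minus controls was -0.25 (exact permutation p = 0.0464, adjusted p = 0.330). The PPM1D row, at 171.7 and 214 in the controls, was lower than both in 70.5% of the wells and higher than both in 7, and its mean log2 difference was -0.39 (exact permutation p = 0.140, adjusted p = 0.346). The adjusted p did not pass for either row.

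The other 3 rows had controls in the midst of the kinase wells. The mean log2 difference was -0.04 for ITPR2 (exact permutation p = 0.806), 0.12 for PLA2R1 (exact permutation p = 0.429) and -0.04 for Tet3 (exact permutation p = 0.609). Against the 19 kinase wells with sample numbers of 24 or lower, which lie in the same runs as the controls, the differences were -0.32, 0.03 and -0.11 for these rows, -0.33 for Tet2 and -0.40 for PPM1D. The test sets the mean of the 2 controls against the means of all pairs of wells, so its spread is nearly all that between kinase wells. Scaled on the positive controls only, the median of all rows moved by 0.28, and the ITPR2, Tet2 and Tet3 rows took the opposite sign (0.27, 0.06 and 0.27).

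Kinase families were compared next, each with all other kinase wells, in 1 edgeR fit over 16 families. Wells of a family are different kinases and not replicates of a condition. None of the 80 pairs of a row and a family passed an adjusted p of 0.05, the smallest being 0.462 (edgeR's quasi-likelihood test, Benjamini-Hochberg adjustment over 912 pairs), where 0.11% of the pairs over all endogenous rows passed. At an unadjusted p of 0.05, 10 of the 80 pairs passed, 4 higher and 6 lower, and 6.69% of all 912 pairs did. The 80 log2 differences lay between -0.32 and 0.22, with standard errors from 0.04 to 0.18.

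Of the 10 pairs, 4 belonged to the tyrosine kinases, a family of receptors such as FGFR1 and RET and of kinases inside the cell such as BLK, LCK and SYK. For the Tet2 row, 13 of the 18 tyrosine kinase wells were below the median of all wells, and the median normalized count was 635 in the family and 694 in the other wells. The log2 difference was -0.12 ± 0.04 (SE, edgeR unadjusted p = 0.00733, adjusted p = 0.514). The PPM1D row had medians of 122.6 and 148.6 and a log2 difference of -0.20 ± 0.09 (edgeR adjusted p = 0.675), with 12 of 18 wells below the median. The PLA2R1 row had medians of 462 and 519 and a difference of -0.11 ± 0.05 (edgeR adjusted p = 0.675), and the ITPR2 row had medians of 629 and 662 and a difference of -0.12 ± 0.06 (edgeR adjusted p = 0.690). Each of the 4 differences kept its sign when any one of the 18 wells was left out. Scaled on the positive controls only, they were 0.04 for Tet2, ITPR2 and PLA2R1 and -0.08 for PPM1D. With the run of 12 sample numbers as a covariate, they were -0.11 for Tet2 and ITPR2, -0.19 for PPM1D and -0.10 for PLA2R1. All 4 kept an unadjusted p under 0.05, and none passed after adjustment (edgeR adjusted p from 0.218 to 0.530).

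The lipid and inositol kinases, which phosphorylate membrane lipids and inositol phosphates, gave 3 pairs. The family's 17 wells had a median of 769 for the ITPR2 row, against 660 in the other wells, and a log2 difference of 0.13 ± 0.06 (SE, edgeR adjusted p = 0.675). The PLA2R1 and Tet2 rows had differences of 0.13 ± 0.05 and 0.11 ± 0.04 (edgeR adjusted p = 0.548 for both). With the run of 12 sample numbers as a covariate, the 3 differences were 0.06, 0.09 and 0.06, and none of the 3 had an unadjusted p under 0.05.

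The pair with the smallest p was the ITPR2 row in the kinases that activate NF-kB. The 5 wells held 381 for MAP3K7, 443 for IKBKE, 493.3 for TBK1, 551 for MAP3K14 and 814 for MAP3K8. The first 4 were below the median of all wells, 661, and the MAP3K8 well was above it. The log2 difference was -0.32 ± 0.11 (SE, edgeR unadjusted p = 0.00267, adjusted p = 0.462). As a difference of mean log2 values it was -0.36, and it ranged from -0.25 to -0.52 when one well was left out. The other 2 pairs were the PPM1D row in the AKT, SGK and S6 kinases, at 0.22 ± 0.11 (edgeR adjusted p = 0.707), and the Tet2 row in the TGF-beta receptors, LIMK and ILK, at -0.16 ± 0.07 (edgeR adjusted p = 0.683). With the run of 12 sample numbers as a covariate, the last pair was at -0.05 (edgeR unadjusted p = 0.481). The ITPR2 pair was then at -0.27 (edgeR unadjusted p = 0.00257, adjusted p = 0.218) and the PPM1D pair at 0.20 (edgeR unadjusted p = 0.0264, adjusted p = 0.624). Without the AKT1 well the PPM1D pair, 0.20 as a difference of mean log2 values, was 0.11.

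**Figure D3:**
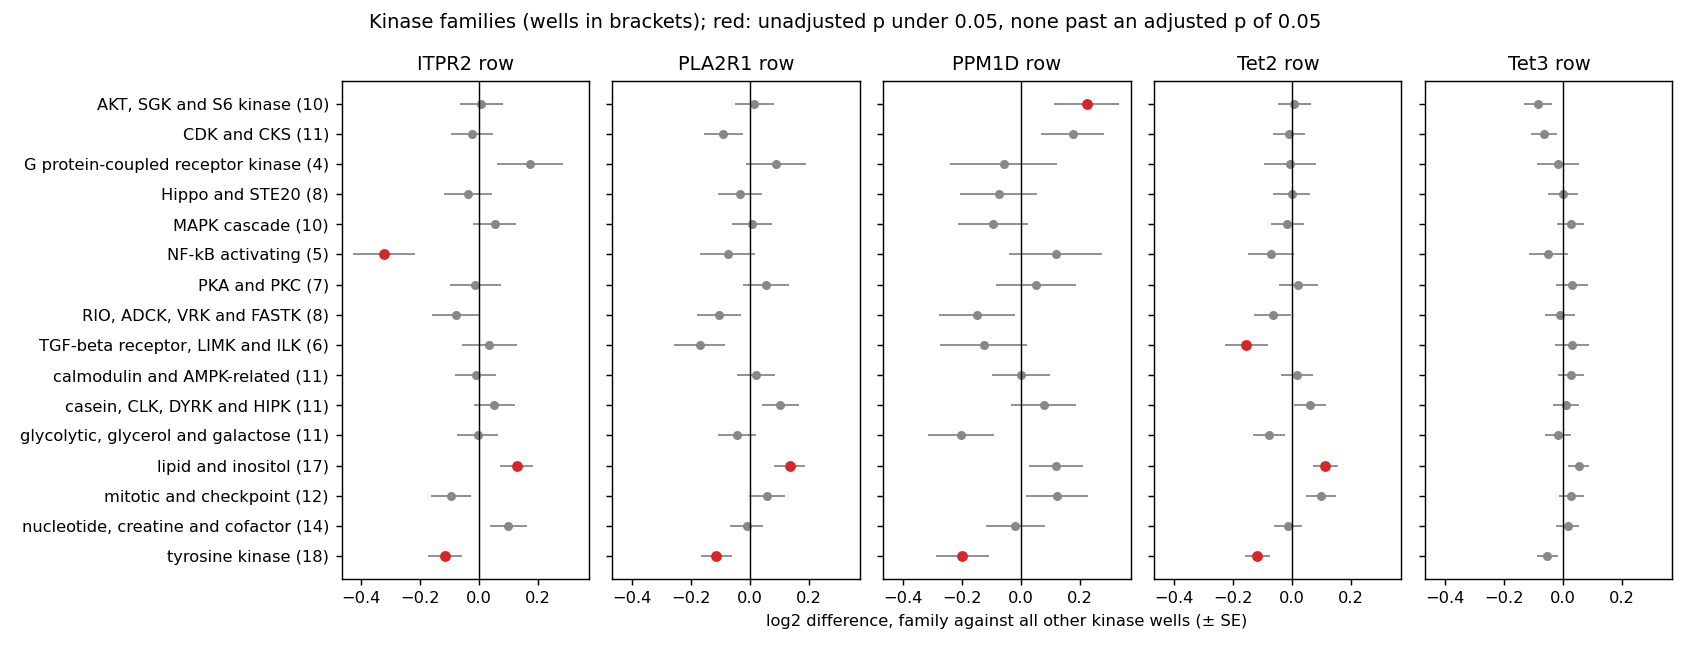
The log2 difference of each kinase family from all other kinase wells (horizontal axis, ± SE from edgeR) for the 5 rows, with the number of wells of a family in brackets. Red marks the 10 pairs with an unadjusted p under 0.05, none of which passed after adjustment. The Tet3 row has no red mark.

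Much of the spread between kinase wells followed the sample number in the titles. Runs of 12 successive numbers held 39.8% of the variance of the log2 normalized counts of the ITPR2 row, 42.9% for PLA2R1, 45.3% for PPM1D, 37.6% for Tet2 and 45.6% for Tet3. With 17 runs, 8.79% would come from their number alone. The families held between 9.84% for Tet3 and 16.5% for ITPR2, with as many groups when the unclassified wells are counted. The labels do not say what the numbers stand for, and kinases of a family are not spread evenly over them.

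The runs were high and low in different rows. Counted from the lowest sample number, the PPM1D row was highest in run 3, 0.47 above its mean on the log2 scale, and lowest in run 16, at -0.35. The PLA2R1 and Tet2 rows were both lowest in run 7 (-0.27 and -0.21) and highest in run 11 (0.22 and 0.21). The ITPR2 row was highest in run 11 too (0.25) and lowest in run 2 (-0.29). The Tet3 row was lowest in run 5 (-0.16) and highest in run 12 (0.16). What sets the runs apart was not tested.

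**Figure D4:**
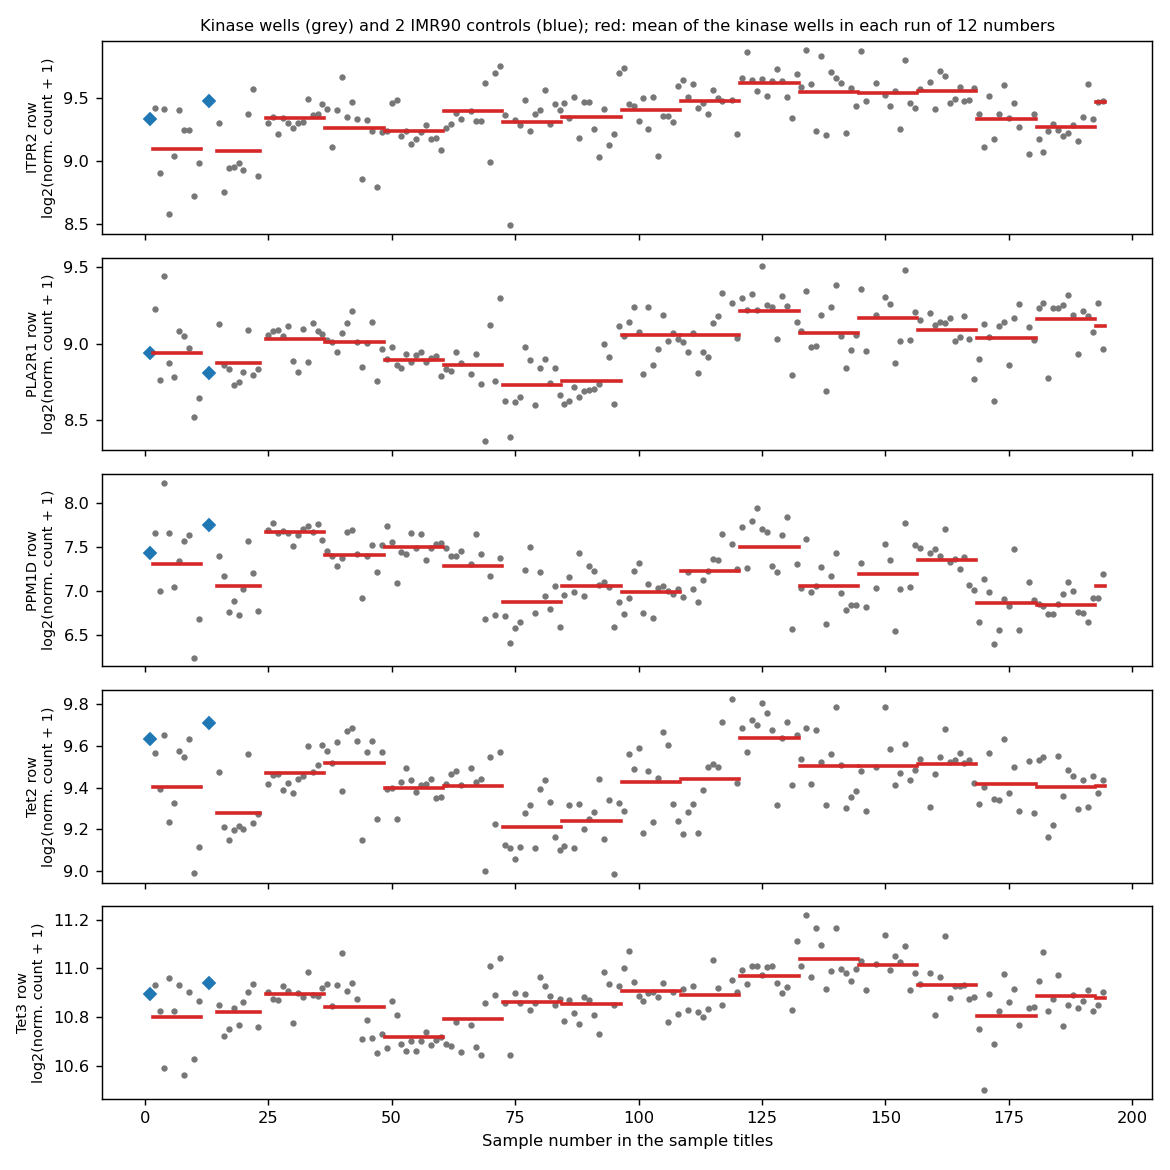
Log2(normalized count + 1) of the kinase wells (grey) and the 2 controls (blue) against the sample number in the titles, 1 panel per row. Red bars give the mean of the kinase wells in each run of 12 numbers, which moves by up to 0.47 from the mean of a row.

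Single wells were described by their Z-score, the distance of a well from the mean of all IMR90 wells in units of SD of the log2 normalized count. Of the 915 pairs of a row and a kinase well, 12 were beyond 2.5 in size, 2 above and 10 below. The balance hung on the scaling, with 18 above and 7 below on the positive controls only and 7 above and 6 below with TBP alone. The 12 were 1.31% of the pairs, against 1.22% of the pairs over all 57 endogenous rows. Of the 12, 1 was beyond 3.5. As each kinase had 1 well, no test against replicate error could be made, and the same wells took part in choosing the rows.

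The ITPR2 row was beyond 2.5 in 4 wells, all of them low. It held 437 raw counts and a normalized count of 359 with BLK, a kinase of the Src family of B cells (Z = -3.74). With MAP3K7, the TAK1 kinase upstream of NF-kB and of stress kinases, it held 520 raw counts and a normalized count of 381 (Z = -3.38). The wells FGFR1, a receptor of fibroblast growth factors, and PTK2, the focal adhesion kinase, followed with normalized counts of 420 and 431 (Z = -2.77 and -2.61). The second lane titled PTK2, left out here, held 857 raw counts, against 460 in the PTK2 well. That lane carries the sample number of AKT1, whose well held 743. The MAP3K7 value was past 2.5 in 10 of 11 alternative settings, the BLK value in 9, FGFR1 in 7 and PTK2 in 6. Scaled on the positive controls only, the 4 Z-scores lay between -1.89 and -1.24. The highest wells were DYRK4, PRKACG and VRK3, at 940, 934 and 928 (Z from 2.11 to 2.18).

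The PLA2R1 row was low with RET, the receptor of glial cell line-derived factors, at a normalized count of 328 (Z = -2.99), and with BLK, at 334 (Z = -2.88). The RET value was past 2.5 in 9 of the 11 settings and the BLK value in 6. Scaled on the positive controls only, their Z-scores were -0.68 and -0.74. FGFR1 came next at 367 (Z = -2.24). Its highest wells were GRK5 at 725, PIP5K2A at 714 and AKT1 at 694, all under 2.5. The PIP5K2A lane was the shallowest of those used, and its value rests on 118 raw counts.

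The PPM1D row was lowest with FGFR1, at 110 raw counts and a normalized count of 74.9 (Z = -2.61), followed by TNK2 and BLK, both at 83.7. It was highest with AKT1, a survival kinase that growth factors activate, at 327 raw counts and a normalized count of 299.7 (Z = 2.80). The next wells, FRK and TSSK1B, held 245 and 229. The AKT1 value was past 2.5 in 8 of the 11 settings and the FGFR1 value in 6. The AKT1 value lay above both controls, at 171.7 and 214, and below both SW39 lanes, at 405 and 457.

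The Tet2 row was beyond the threshold in 1 well, ADCK5 (a normalized count of 506, Z = -2.50), with FGFR1 at 508 and RET at 511 just within it. The ADCK5 value was past 2.5 in 4 of the 11 settings. Its highest wells were MAPK6 at 907, GRK5 at 895 and PRKAG2 at 884 (Z from 2.06 to 2.27). These 3 were above both controls but below both SW39 lanes.

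The Tet3 row was lowest with MAP3K14, the NF-kB inducing kinase, at a normalized count of 1447 (Z = -3.14), and with PIK3CB at 1510 (Z = -2.63), followed by AKT1 at 1543. It was highest with DYRK4, at 2383 (Z = 2.84), with PAK4 and IHPK2 next at 2298 and 2296. The MAP3K14 value was past 2.5 in 8 of the 11 settings, and the PIK3CB and DYRK4 values in 5 each. In the MAP3K14 well 2 normalizers were themselves beyond 2.5, TBP at -4.17 and TUBB2A at 3.17. Scaled on TBP alone the Tet3 value of this well was 0.63, and scaled on the positive controls only it was 1.28.

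Some wells were low or high in several rows. FGFR1 was below -2 in all 5 rows, BLK in 3 and RET in 2. In the FGFR1 well the normalizers were at 0.50 for PGK1, -2.37 for TBP and 1.74 for TUBB2A, and in the BLK well PGK1 was at 2.95. Above 2 in 2 rows were AKT1 (PLA2R1 and PPM1D), GRK5 (PLA2R1 and Tet2), PRKAG2 and IHPK2 (Tet2 and Tet3) and DYRK4 (ITPR2 and Tet3). The AKT1 well was the one with rows beyond 2 on both sides, since its Tet3 row was at -2.38. Each row was also set against the mean of the other 4 rows in the same lane, a measure chosen after seeing the data. AKT1 remained apart, at 2.80 for PPM1D and -4.07 for Tet3, as did MAP3K7 for ITPR2, at -3.81. The measure ties the rows of a lane together, so the high PPM1D and PLA2R1 rows of AKT1 also lowered its Tet3 value. The 2 AKT1 values are therefore not separate departures. On this measure the FGFR1 values were -0.54 for ITPR2 and -1.54 for PPM1D, and the BLK value was -1.74 for ITPR2. The part of the normalizers in the low values of FGFR1 and BLK was not tested further.

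**Figure D5:**
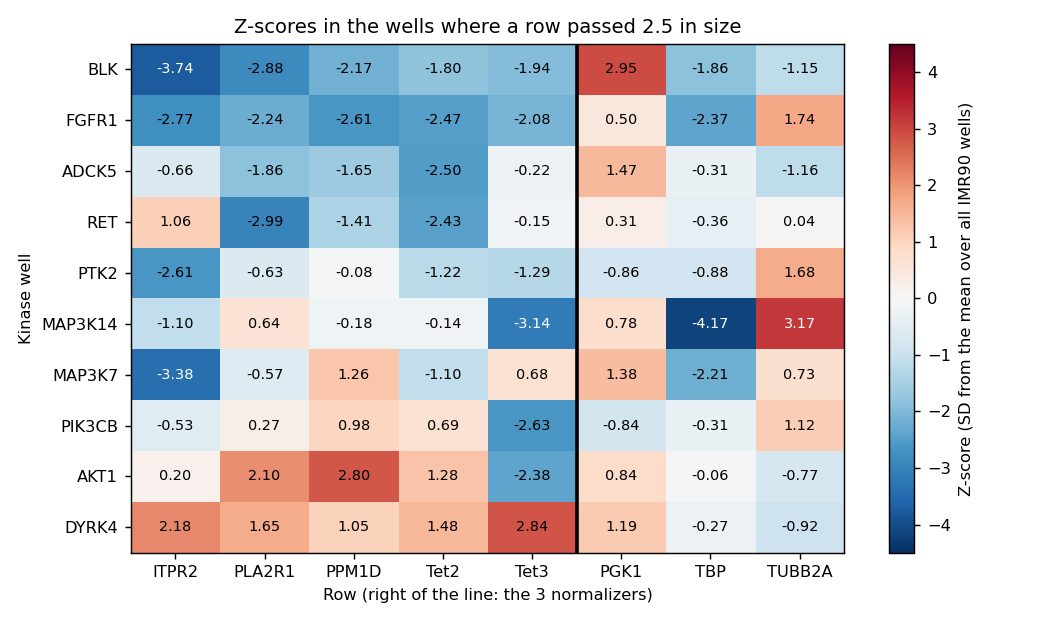
Z-scores (color and numbers, SD from the mean over all IMR90 wells) of the 5 rows, and of the 3 normalizers right of the line, in the 10 kinase wells where one of the 5 rows was beyond 2.5. The FGFR1 well is low in all 5 rows, AKT1 is high in PPM1D (2.80) and low in Tet3 (-2.38), and in MAP3K14 the normalizer TBP is at -4.17.

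The rows were also compared in how they varied over the kinase wells, as a description. The wells share the normalizers and the runs of sample numbers. The PLA2R1 and Tet2 rows were most alike (Pearson r = 0.74), and the PPM1D row was most like Tet2 as well (r = 0.63). The ITPR2 and Tet3 rows were most like each other (r = 0.57), and the ITPR2 row was almost as close to the normalizer TBP (r = 0.57). The next rows were NeoR for PLA2R1 (r = 0.65), Tet1 for PPM1D (r = 0.61), KCNA1 for Tet2 (r = 0.69) and PuroR, which was at background, for Tet3 (r = 0.51). The least alike rows were TUBB2A for ITPR2 (r = -0.34) and Tet3 (r = -0.24), PGK1 for PLA2R1 (r = -0.44) and PPM1D (r = -0.39), and B2M for Tet2 (r = -0.40). Over the 10 pairs among the 5 rows r ran from 0.06 for PPM1D and Tet3 to 0.74. With the mean of each run of 12 numbers taken out it ran from 0.17 to 0.70, and PLA2R1 with PPM1D went from 0.47 to 0.69.

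The last comparison was with the mixed reference RNA. All 6 lanes hold the same RNA and show technical spread alone, which is why no test was made. None of the 5 rows was 2-fold or more away from the controls, where 61.4% of the 57 endogenous rows were 2-fold or more higher and 5.26% were 2-fold or more lower. The median log2 difference was 0.07 over the 5 rows and 1.34 over all 57. The 5 rows were chosen for high counts in IMR90 cells, while the study picked most genes of the panel as weak or silent there. The contrast with all 57 rows therefore follows in part from how the rows were chosen.

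The PPM1D row came closest to 2-fold higher. It held normalized counts of 385, 372, 375, 419, 394 and 350 in replicates 1 to 6 of the reference RNA, against 171.7 and 214 in the controls. All 6 lanes lay above all kinase wells and, except for one lane, below both SW39 lanes. The ratio of geometric means was 1.99, with an SD of 0.09 between the lanes on the log2 scale.

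The Tet3 row held 1012, 1031, 1067, 1102, 1088 and 1085 in the reference RNA, against 1906 and 1965 in the controls. All 6 lanes lay below all kinase wells, and the ratio was 0.55 (SD 0.05 on the log2 scale, n = 6). The row was thus lowest in the reference RNA and highest in SW39, with kinase wells and controls between and overlapping.

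The other 3 rows overlapped with the controls or lay near them. The ITPR2 row held 642 to 794 with a median of 724 in the reference RNA, the PLA2R1 row held 397 to 576 with a median of 451, and the Tet2 row held 731 to 928 with a median of 892. The ratios of geometric means to the controls were 1.06, 0.98 and 1.05. The SD between the 6 lanes on the log2 scale was 0.11, 0.22 and 0.14, against 0.24, 0.21 and 0.18 between the kinase wells. For the PLA2R1 row, lanes of 1 RNA thus spread as widely as the kinase wells did. For the ITPR2 and PLA2R1 rows the reference RNA lay above both SW39 lanes, and for the Tet2 row below both.

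These ratios rest on normalizers that differ between the mixed RNA and IMR90. PGK1 had a mean normalized count of 20004 in the reference RNA and 9956 in the controls, and TUBB2A had 1574 and 4182. With PGK1 alone the median of all rows fell by 0.95 on the log2 scale, and the PPM1D and Tet3 rows had log2 differences of -0.01 and -1.87. With TUBB2A alone it moved up by 1.37, and these rows stood at 2.40 and 0.55. The difference between the PPM1D and Tet3 rows within a lane, which needs no normalizer, was 1.85 higher in the reference RNA than in the controls on the log2 scale.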

How the data were processed

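Raw counts per probe were deposited for each of 197 lanes; per the file headers they are not normalized. The authors also deposited a table whose signal is the count times 1 factor per lane, in all lanes but 8, and it served as an alternative. Lanes were grouped by their titles (the reference RNA by its kinase label), which gave 183 kinase wells. Counts were scaled with 6 positive controls and then with PGK1, TBP and TUBB2A (their geometric mean) in Python 3.11.15 (numpy 2.4.6, pandas 2.3.3), and a pseudocount of 1 was added before log2. R 4.3.3 with edgeR 4.0.16 gave the tests of SW39 and of families, with standard errors derived from the F statistic, and limma 3.58.1 and DESeq2 1.42.0 were alternatives. Kinase families came from a hand-made list. The tests were tried on simulated data.

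The 5 rows, the gene lists, the tests and the alternatives were chosen with earlier results of these data known. Every one of the 5 rows is named, with the 3 highest and 3 lowest kinase wells, each well beyond a Z-score of 2.5, and the 2 most and the 1 least alike rows. RefSeq accessions of 4 of the 5 rows could be looked up in the RefSeq annotation of GRCh38.p14, and that of Tet3 could not. Probe sequences were not used here.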

Additional observations from a re-analysis of the deposited data

How the results depend on the processing

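The total count of a lane limits the PPM1D row most, with as few as 36 counts in a well. In SW39, 3 rows passed as reported, 1 with limma (PPM1D), and 4 with TMM factors, both DESeq2 fits, low counts left out or lanes of the same name summed, PLA2R1 being the added one (adjusted p from 0.00137 to 0.0391). With TBP alone 4 passed too, and with the positive controls only or all 4 housekeeping genes Tet2 passed (edgeR adjusted p = 0.0147 and 0.0449). With 1 lane left out, 0 to 1 rows passed, where the lone lane was taken to vary like the other group. The log2 fold change turned sign for ITPR2 with the positive controls only (0.15) and TUBB2A alone (0.29), for PLA2R1 likewise (0.38 and 0.51), and for Tet2 with PGK1 alone (-0.058) and TBP alone (-0.36). The 2 pairs of lanes that share a replicate number also share a run of 12 sample numbers. Their deviations from the group means had a correlation of 0.44 over 15 rows. The labels do not say that the samples are paired, so the main test did not pair them. With the replicate block the edgeR adjusted p was 0.00836 for ITPR2, 0.00097 for PPM1D, 0.00566 for Tet3, 0.0979 for PLA2R1 and 0.169 for Tet2, so that it changed no call. For families, 0 pairs passed under the 12 alternatives run, and since no family passed, wells were not left out of that test in turn. Scaled on the positive controls only, the tyrosine kinase differences of ITPR2, PLA2R1 and Tet2 turned to 0.038, 0.035 and 0.037. Kinase wells against controls gave 0 rows past the threshold throughout; with the positive controls only ITPR2, Tet2 and Tet3 turned to 0.27, 0.062 and 0.27, and with 1 control left out ITPR2 ranged from -0.108 to 0.031. In the reference RNA, 0 rows were 2-fold away as reported, 4 with the positive controls only or TUBB2A alone, 2 with PGK1 alone, 1 with all 4 housekeeping genes, with TBP alone or with lanes of the same name averaged, and 0 to 1 with 1 lane left out. Pairs beyond a Z-score of 2.5 numbered 12 as reported, 25 with the positive controls only, 23 with a median and a median absolute deviation as centre and spread and 19 with each run of 12 numbers centred, of which 1, 10 and 7 were among the 12. The Z-score of Tet3 turned in MAP3K14 (1.28 with the positive controls only, 0.63 with TBP alone) and in DYRK4 (-0.20 against the other 4 rows). A threshold of 50 would give 6 rows and one of 200 would give 4. The causes were not tested.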
